A study of Homo sapiens with 3 samples.

Results

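The comparison described here set the transcriptome of SK-N-BE(2) cells given arsenic trioxide (ATO) at 4 µM beside that of the same cells given ATO at 2 µM. Both cultures were treated for 12 h. SK-N-BE(2) is an established human neuroblastoma line with amplified MYCN, the gene of the transcription factor N-Myc. Another library came from control cells, labelled Ctrl, whose treatment is not further described. The deposited table gave FPKM, a level scaled to transcript length and to the number of mapped fragments, for 34520 rows. The rows compared were the 12433 whose FPKM averaged 1 or more across all 3 libraries, of which 11120 were plain gene symbols. For each row the log2 ratio of FPKM + 1 was taken at a first step, 2 µM against control, and at a second step, 4 µM against 2 µM. A row was called higher or lower by size, when its log2 fold reached 1 or -1, which is a 2-fold difference of FPKM + 1. There was 1 library per dose. Replicate error is therefore unknown throughout, no test between doses was possible, and dose and library cannot be told apart. The 2 steps share the 2 µM library, so an error in that library moves them in opposite directions.

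ATO releases trivalent arsenic, which binds neighbouring thiols of proteins and depletes reduced glutathione. Cells answer with several transcription programmes. NRF2, freed from its thiol sensor KEAP1, switches on antioxidant and iron-handling genes through antioxidant response elements. MTF1 senses metals and switches on metallothioneins through metal response elements, and HSF1 switches on chaperones through heat shock elements when proteins misfold. In the integrated stress response, kinases phosphorylate the initiation factor eIF2, general translation falls, and ATF4 and CHOP are translated and switch on amino acid and cell death genes, often through a C/EBP-ATF response element. In neuroblastoma, N-Myc binds E-boxes and drives ribosome assembly, nucleotide synthesis and the cell cycle, while PHOX2A, HAND and GATA factors maintain the adrenergic, sympathetic state.

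Promoters of 5 genes that stand for these programmes are shown, each chosen because it holds a match to the motif of its programme. Each is the 250 bases before the start of the gene in RefSeq (GRCh38.p14), written 5′ to 3′ on the strand of the gene, with the matches to 1 short motif in capitals. The motifs, searched on both strands, were TGATGNAA for the C/EBP-ATF response element, TGACNNNGC for the antioxidant response element, TGCACNC or TGCGCNC for the metal response element, GAANNTTC for the heat shock element and CACGTG for the E-box. CHAC1 (chr15:40953221-40953470, plus strand) encodes a glutathione-degrading enzyme, and its match starts at -209 from the gene start.
CHAC1: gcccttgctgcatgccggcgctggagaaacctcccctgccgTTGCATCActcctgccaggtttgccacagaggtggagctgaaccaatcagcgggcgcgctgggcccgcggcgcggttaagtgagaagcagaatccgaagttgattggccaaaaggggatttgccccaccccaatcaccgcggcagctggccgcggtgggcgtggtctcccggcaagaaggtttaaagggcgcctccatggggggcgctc
GCLM (chr1:93909431-93909680, minus strand) encodes the regulatory subunit of the first enzyme of glutathione synthesis, and its match starts at -34.
GCLM: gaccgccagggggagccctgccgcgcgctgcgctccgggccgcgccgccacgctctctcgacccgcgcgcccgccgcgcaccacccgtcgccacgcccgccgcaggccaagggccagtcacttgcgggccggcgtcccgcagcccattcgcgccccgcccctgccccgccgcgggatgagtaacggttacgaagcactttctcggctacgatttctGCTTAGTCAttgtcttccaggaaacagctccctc
MT2A (chr16:56608334-56608583, plus strand) encodes a metallothionein, a small protein that binds metals through thiols, and it has 7 matches.
MT2A: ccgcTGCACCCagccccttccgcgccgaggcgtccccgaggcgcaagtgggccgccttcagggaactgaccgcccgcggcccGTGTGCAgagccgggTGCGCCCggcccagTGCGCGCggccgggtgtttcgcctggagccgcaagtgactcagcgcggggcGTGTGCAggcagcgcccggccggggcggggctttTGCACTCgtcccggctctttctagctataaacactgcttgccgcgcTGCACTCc
HSPA1A (chr6:31815293-31815542, plus strand) encodes the inducible chaperone HSP70, and its match starts at -106.
HSPA1A: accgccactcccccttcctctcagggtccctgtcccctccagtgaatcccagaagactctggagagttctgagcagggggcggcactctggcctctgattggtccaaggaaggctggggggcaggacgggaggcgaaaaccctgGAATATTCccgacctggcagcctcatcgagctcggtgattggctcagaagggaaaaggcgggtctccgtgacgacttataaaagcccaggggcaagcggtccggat
SRM (chr1:11060019-11060268, minus strand) encodes spermidine synthase, a target of MYC proteins, and its match starts at -199.
SRM: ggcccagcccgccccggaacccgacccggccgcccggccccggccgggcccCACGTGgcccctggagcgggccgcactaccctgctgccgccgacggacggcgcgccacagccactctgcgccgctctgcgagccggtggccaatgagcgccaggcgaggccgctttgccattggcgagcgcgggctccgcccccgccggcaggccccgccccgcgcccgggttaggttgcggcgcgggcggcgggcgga
No letters of these matches were shared with a match to another of the 5 motifs. Over the 27305 genes of the promoter table, windows of the same length held the C/EBP-ATF response element in 3.89%, the antioxidant response element in 13.2%, the metal response element in 28.5%, the heat shock element in 7.05% and the E-box in 7.73%. Of the considered genes 9088 were matched, with 2.15%, 15.9%, 40.6%, 5.52% and 11.6% in the same order. A match is a run of letters and does not show binding, and a window without one says nothing of the factor.

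The libraries were close in the number of genes detected, and their depth is unknown. FPKM summed to between 246878 and 262632, and between 12149 and 12606 rows reached 1 FPKM. The neuroblastoma markers MYCN, PHOX2A, HAND2, GATA3 and DBH were each above 1 FPKM in every library. Of the listed markers of leukocytes and red cells 1 of 8 in the table was considered, of epithelium 1 of 5 and of endothelium 0 of 6. The summed leukocyte and red cell markers went from 1.13 FPKM in the control to 5.46 at 2 µM and 5.93 at 4 µM, most of it from the lysosomal gene CD68 (0.534, 3.69 and 4.87 FPKM), while PTPRC, the pan-leukocyte marker, was at 0.0179 FPKM at 4 µM. In bulk RNA, fewer cells of a kind and less RNA per cell cannot be told apart.

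At the second step 142 rows were higher (1.14% of those considered) and 166 were lower (1.34%). At the first step 144 were higher (1.16%) and 112 were lower (0.901%). The middle of the distribution also lay lower at the second step. Its median was -0.12, with 63.0% of rows below 0, against 0.01 and 48.4% at the first step. The central 95% of rows lay between -0.87 and 0.77. Median-of-ratios scaling between libraries took the second-step median to 0.003 and upper-quartile scaling took it to -0.007, a shift of the whole distribution by more than 0.1. As deposited 46.1% of the called rows were higher. With median-of-ratios scaling 220 rows were higher and 91 lower (70.7% higher), and with upper-quartile scaling 211 and 97 (68.5%). List medians below are therefore to be read against -0.12 at the second step and 0.01 at the first. Counts of called list members are to be read against the shares of all considered rows. These were 1.14% higher and 1.34% lower at the second step, and 1.16% and 0.901% at the first.

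The 2 folds of each row placed it in a dose class. Rows that passed the size rule at the first step were called levelled off when the second step was under 0.5 in size, slowing when it was 0.5 to 1 in the same direction, graded when it passed the rule again, and turned back when it was at least 0.5 the other way. Of the 144 higher rows, 48 had levelled off (0.386% of the rows considered), 41 were slowing (0.33%), 38 were graded (0.306%) and 17 turned back (0.137%). Of the 112 lower rows, 44 had levelled off (0.354%), 26 were slowing (0.209%), 24 were graded (0.193%) and 18 turned back (0.145%). Of the 256 rows called at 2 µM, 92 thus moved under 0.5 further, 67 and 62 went on the same way by less or more than the size rule, and 35 came back.

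Rows that passed the rule at the second step were called higher dose only when the first step was under 0.5 in size, and late leaning when it was 0.5 to 1 the same way. The class of higher dose only held 55 higher rows (0.442%) and 88 lower rows (0.708%), and late leaning held 34 higher (0.273%) and 37 lower (0.298%). Of the 308 rows called at the second step, 143 had thus moved less than 0.5 at 2 µM. Another 62 were graded, 71 late leaning and 18 turned back, and 14 had a first step of 0.5 to 1 the other way. The classes are bands of size and not tests, and a row under 0.5 at 2 µM is not shown to be unaffected there. Just outside the rule stood DHCR7, of cholesterol synthesis, with a second step of -0.998, and just inside it MRPS34, of the mitochondrial ribosome, with -1.001. The filter lay between SPTSSB, with a mean of 0.9995 FPKM, and ZNF836, with 1.0003 FPKM.

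**Figure D1:**
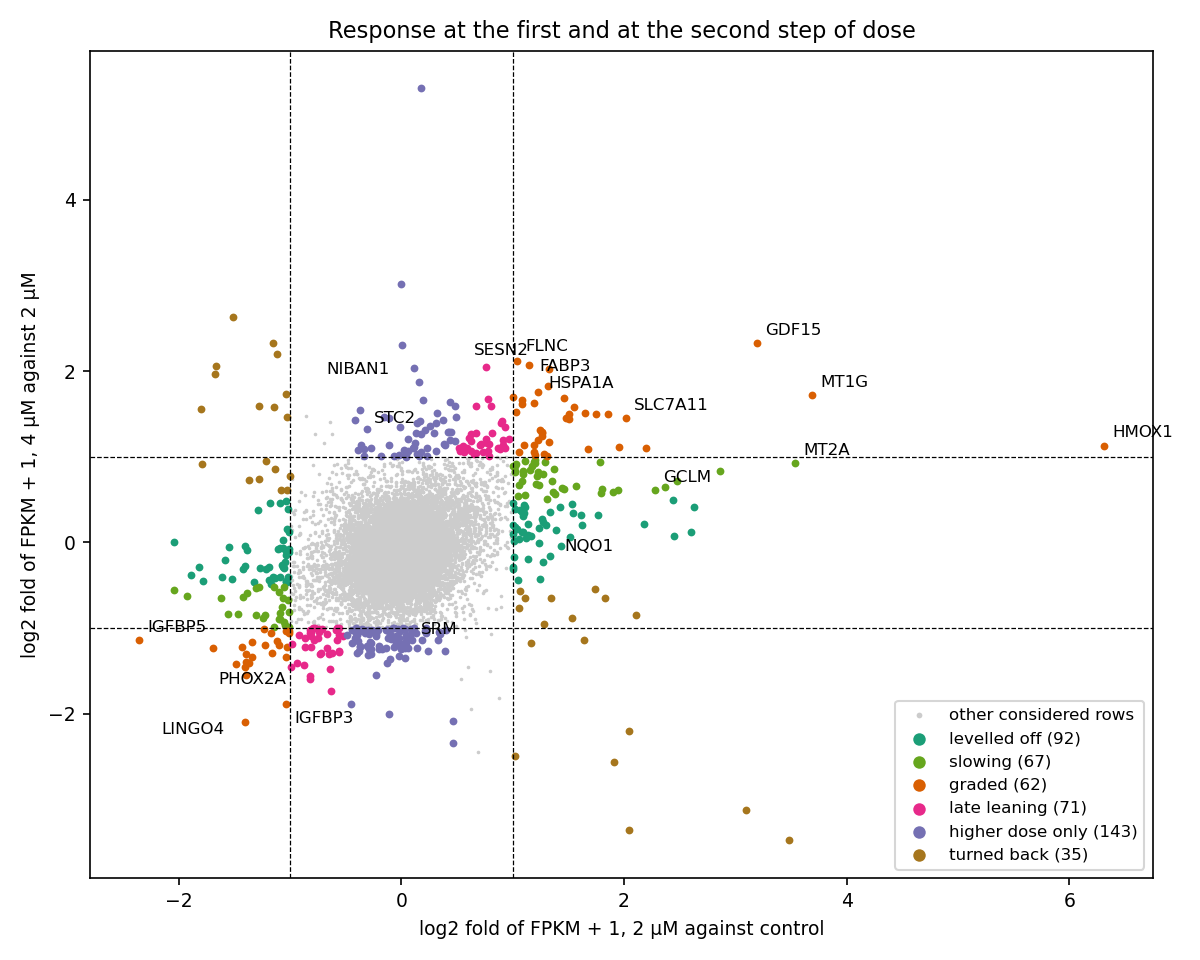
Each point is 1 of the 12433 considered rows, with the log2 fold of 2 µM against control on the x axis and of 4 µM against 2 µM on the y axis (FPKM + 1), coloured by dose class. Dashed lines mark the size rule of 1. HMOX1 and MT2A lie far to the right, FLNC, FABP3 and SESN2 high on the y axis, and IGFBP3 and LINGO4 at the lower left.

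**Figure D2:**
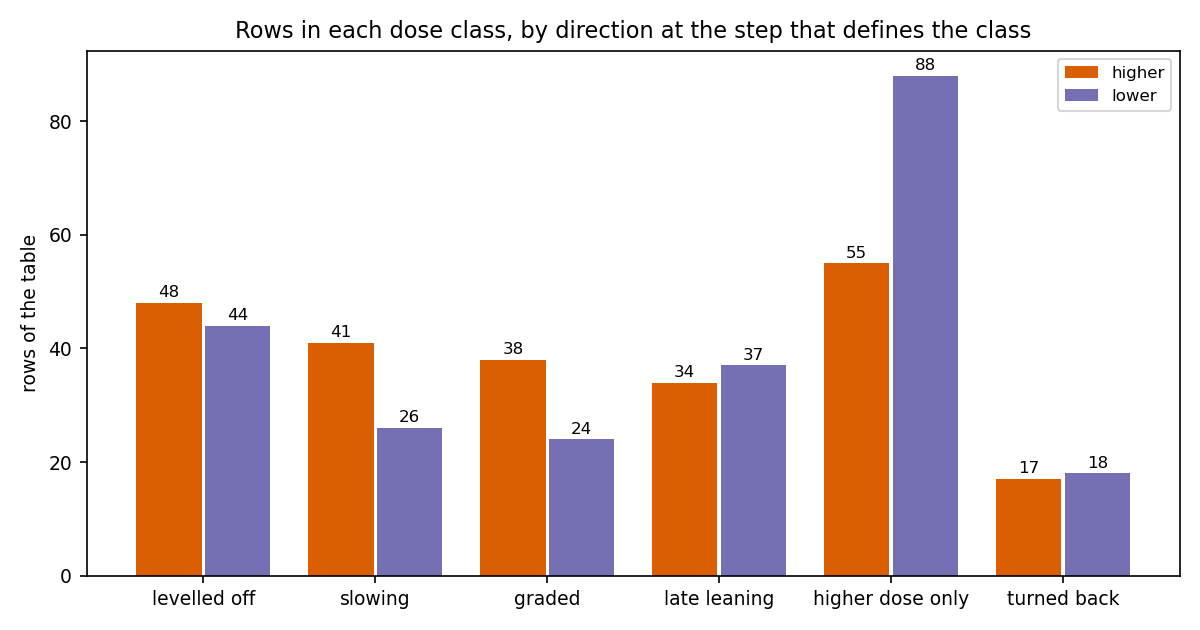
Bars give the number of rows in each dose class, split into higher and lower by the direction of the step that defines the class. The class of higher dose only was the one with the most rows, 55 higher and 88 lower.

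The 3 largest second-step increases among rows with a plain gene symbol were those of GDF15, FLNC and FABP3. GDF15, a stress cytokine related to TGF-beta, went from 1.085 FPKM in the control to 18.1 at 2 µM and 94.5 at 4 µM, with log2 folds of 3.19 and then 2.32. FLNC, an actin-crosslinking filamin, had 8.54, 18.6 and 83.8 FPKM, log2 folds of 1.04 and 2.12. FABP3, a fatty acid binding protein, had 2.92, 7.66 and 35.3 FPKM, log2 folds of 1.14 and 2.07. All 3 were graded, lowest in the control and highest at 4 µM, and for FLNC and FABP3 the second step was the larger.

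SESN2 behaved as a late-leaning gene. It encodes sestrin 2, a leucine-sensing brake on the growth kinase mTORC1, and had 4.66, 8.60 and 38.7 FPKM in control, 2 µM and 4 µM cells, log2 folds of 0.76 and 2.05. NIBAN1, a stress-induced regulator of translation, had 0.302, 0.405 and 4.76 FPKM, with log2 folds of 0.11 and 2.04. It stood below 1 FPKM in the control and at 2 µM, so it passed the filter through the 4 µM library. Its second step was 3.27 with a pseudocount of 0.1 and 0.85 with a pseudocount of 5. ADM2, a peptide hormone of the calcitonin family, had 1.22, 4.57 and 21.7 FPKM (1.33 and 2.03), and TRIB3, a pseudokinase target of CHOP, had 3.61, 10.5 and 39.6 FPKM (1.32 and 1.82). In each of these 4 genes the 4 µM library was the highest. OCIAD1-AS1 was also high at 4 µM (6.70 FPKM against 1.10), but it overlaps OCIAD1 on the other strand, and whether the counting used strand is not given.

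The integrated stress response had the highest second-step median of the lists with over 10 considered genes. Of its 38 considered genes 9 were higher and 0 lower at the first step, where 1.16% of all considered rows were higher. At the second step 15 of the 38 were higher and 0 lower, beside 1.14% of all considered rows higher. The median log2 fold was 0.59 and then 0.85, and 27 of the 38 had the larger step second. Of the 15, 7 were graded, 5 late leaning and 3 in the class of higher dose only. The C/EBP-ATF motif stood in 6 of the 31 members with a promoter in the table (19.4%).

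Regulators of this response lay on both sides of the list median of 0.85 at the second step. ATF4 itself, the central activator, had 110 FPKM in control cells, 138 with 2 µM and 199 with 4 µM ATO, log2 folds of 0.32 and 0.53, under the size rule at each step. DDIT3, which encodes the pro-death factor CHOP, had 6.22, 11.7 and 29.7 FPKM (0.82 and 1.27), though it overlaps MARS1 and MBD6 on the other strand. ATF5, another activator of the family, had 2.04, 4.62 and 11.0 FPKM (0.89 and 1.09), and CEBPB 13.6, 24.0 and 51.2 FPKM (0.78 and 1.06). Those 3 were late leaning. PPP1R15A, the phosphatase subunit that reverses eIF2 phosphorylation, was graded at 11.5, 25.6 and 80.3 FPKM (1.09 and 1.61).

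Among the targets, CHAC1, with the response element at -209, had 1.93, 5.70 and 19.6 FPKM in control, 2 µM and 4 µM cells, log2 folds of 1.19 and 1.62. SLC7A11, the cystine importer that is also an NRF2 target, had 7.61, 33.8 and 93.7 FPKM (2.01 and 1.45). STC2, a secreted glycoprotein, had 17.5, 22.0 and 59.6 FPKM, a first step of 0.31 and a second of 1.40, and the glycine transporter SLC6A9 had 1.57, 1.80 and 5.28 FPKM (0.12 and 1.17). STC2 and SLC6A9 were close in the control and at 2 µM and high at 4 µM. The serine and one-carbon genes PHGDH, PSAT1, SHMT2 and MTHFD2 had second steps of 0.60, 0.66, 0.63 and 0.60, none past the rule, and ASNS, asparagine synthetase, had 13.3, 36.1 and 66.2 FPKM (1.37 and 0.86). ALDH18A1, the first enzyme of proline synthesis, lay the other way at 43.5, 34.3 and 17.2 FPKM, with a second step of -0.95.

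The 20 cytosolic tRNA synthetases, several of which ATF4 activates, had medians of 0.16 and 0.25. At each step 1 gene was higher, beside 1.16% and 1.14% of all considered rows. That gene was WARS1, for tryptophan, at 16.6, 36.9 and 82.6 FPKM (1.11 and 1.14). GARS1 and SARS1 had second steps of 0.90 and 0.82, whereas FARSB had -0.79, so members of the list lay on both sides. Among the 13 brakes on mTORC1 SESN2 was higher and DEPTOR was lower at the second step (35.5, 26.7 and 12.1 FPKM, -1.08, or -0.94 with median-of-ratios scaling), and DDIT4, an inhibitor induced by stress, had 37.1, 31.0 and 56.6 FPKM (0.85). The median of that list was 0.11 after -0.06.

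**Figure D3:**
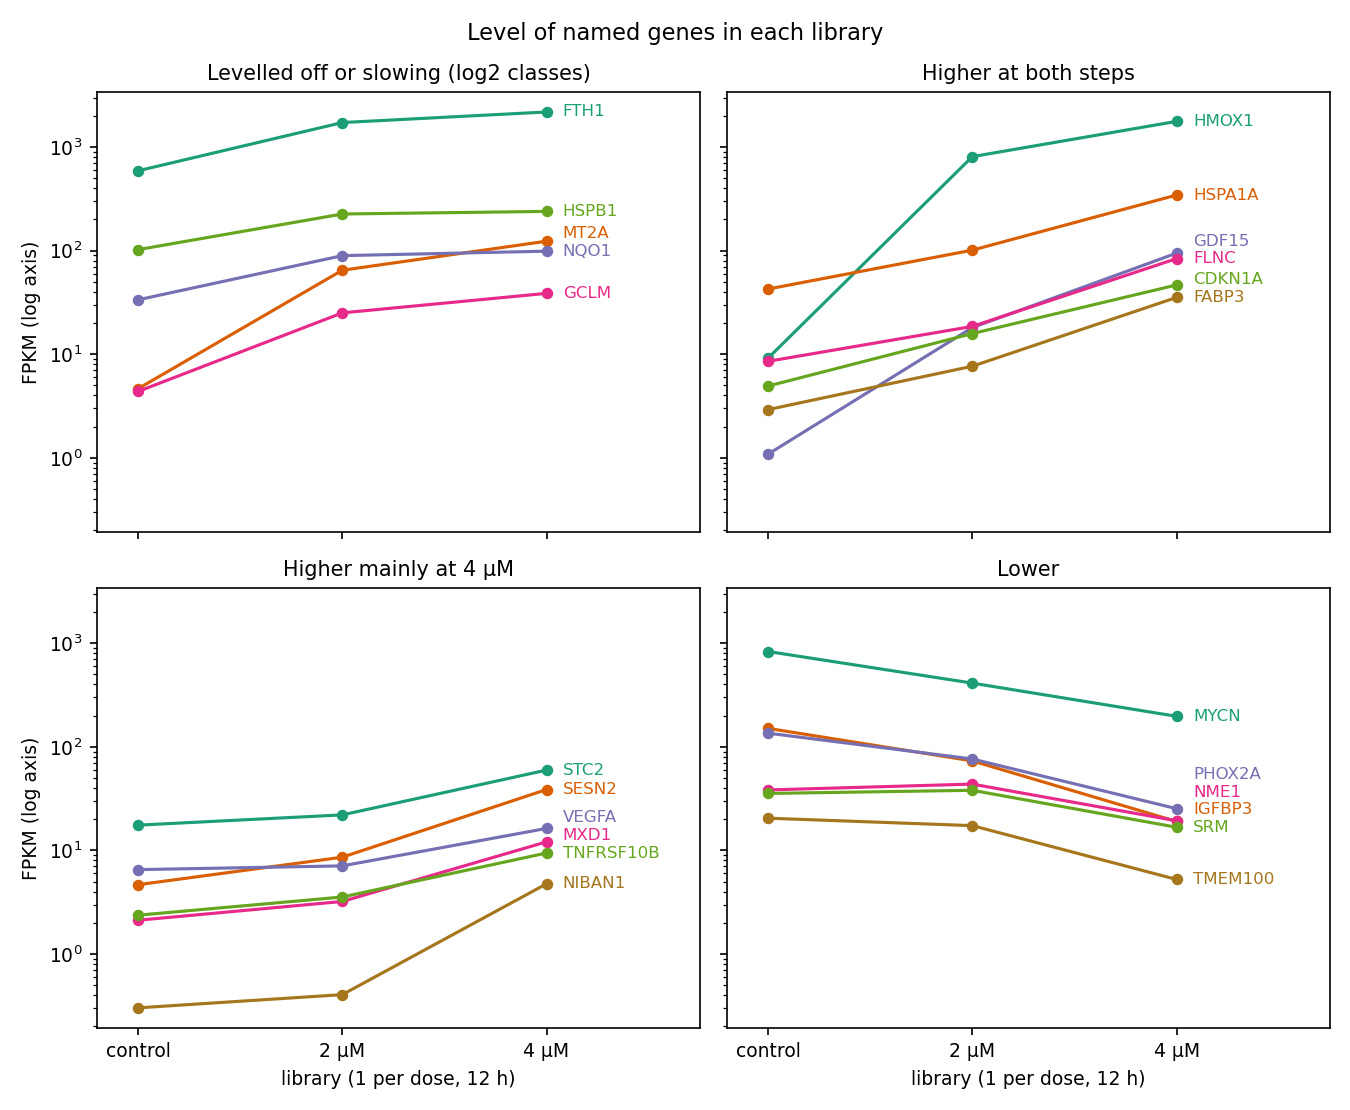
FPKM of named genes in the control, 2 µM and 4 µM libraries on a log axis, 1 library per point, grouped by the shape of the response. NQO1 and FTH1 have second steps of 0.14 and 0.34, GDF15 and FLNC rise at both steps, STC2 and NIBAN1 rise between 2 and 4 µM, and SRM and NME1 are level up to 2 µM and lower at 4 µM.

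Most NRF2 targets had the larger log2 step at the lower dose. Of 34 considered genes 16 were higher at the first step and 8 at the second, with 0 lower at either. Of all considered rows 1.16% and 1.14% were higher at these steps. The medians of the NRF2 list were 0.94 and 0.45. In 6 of the 34 the second step was the larger. Of the 16 that rose at 2 µM, 2 levelled off, 8 were slowing and 6 were graded. The antioxidant response motif stood in 8 of 25 matched members (32%).

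NQO1, a quinone reductase and classic NRF2 readout, had 33.5 FPKM in control cells, 89.5 with 2 µM and 98.8 with 4 µM ATO, log2 folds of 1.39 and 0.14. FTH1, the ferritin heavy chain that stores iron, had 590, 1723 and 2180 FPKM (1.55 and 0.34), but BEST1 overlaps it on the other strand and had the same shape (7.04, 26.4 and 33.3 FPKM). GCLM, with the motif at -34, had 4.37, 25.1 and 38.7 FPKM (2.28 and 0.61). Each was lowest in the control and highest at 4 µM. NQO1 and FTH1 had levelled off by the class bounds and GCLM was slowing. TXNRD1, thioredoxin reductase, was slowing at 70.5, 172 and 299 FPKM (1.27 and 0.79), as were PGD of the pentose phosphate pathway (91.9, 208 and 388 FPKM, 1.17 and 0.90) and the ferritin light chain FTL (248, 674 and 1050 FPKM, 1.44 and 0.63). These classes are on the log2 scale, and on the linear scale TXNRD1 gained 101 and then 127 FPKM and PGD 116 and then 180 FPKM.

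Some NRF2 targets went on rising. HMOX1, heme oxygenase 1, had 9.17, 808 and 1770 FPKM in control, 2 µM and 4 µM cells, log2 folds of 6.31 and 1.13. On the linear scale it gained 799 FPKM at the first step and 962 FPKM at the second, so whether its response slowed depends on the scale. OSGIN1, an oxidative stress growth inhibitor, had 0.923, 5.45 and 17.2 FPKM (1.75 and 1.499), and SRXN1, sulfiredoxin, 7.21, 30.9 and 67.9 FPKM (1.96 and 1.11). BLVRB, biliverdin reductase B, had 1.52, 5.30 and 13.2 FPKM (1.32 and 1.18). AKR1C1, an aldo-keto reductase, had 3.73, 5.59 and 18.8 FPKM, a first step of 0.48 and a second of 1.59, and shares near-identical sequence with other AKR1C genes, so its split between copies is uncertain. Of the same family AKR1C3 had 9.49, 19.0 and 23.5 FPKM (0.93 and 0.29).

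On the log2 scale most metallothioneins had their larger step at 2 µM. The 7 considered genes of metallothioneins and zinc export had medians of 2.19 and 0.92. Of these, 5 were higher at the first step and 2 at the second, beside 1.16% and 1.14% of all considered rows. In 2 of the 7 the second step was the larger. The summed level of the 7 went from 15.8 to 111 and 235 FPKM, so on the linear scale the second gain was the larger. MT2A, with 7 metal response motifs, had 4.65 FPKM in control cells, 64.7 with 2 µM and 123 with 4 µM ATO, log2 folds of 3.54 and 0.92, the latter 1.07 with median-of-ratios scaling. MT1G had 0.0665, 12.8 and 44.4 FPKM (3.69 and 1.72) and MT1X 0.543, 6.06 and 14.1 FPKM (2.19 and 1.10). MT1M was listed at 0 in the control, with 0.878 and 2.63 FPKM at 2 and 4 µM and a second step of 0.95. Each of these genes was highest at 4 µM, and the near-identical MT1 copies can share reads, so their separate values are uncertain. In the control MT1G, MT1E, MT1F, MT1M and MT1X stood below 1 FPKM, so they passed the filter through the ATO libraries. The zinc exporter SLC30A1 had 10.3, 16.4 and 31.4 FPKM (0.62 and 0.90).

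Of 30 considered heat shock genes 6 were higher at the first step and 4 at the second, with medians of 0.59 and 0.29. Of all considered rows 1.16% and 1.14% were higher at these steps. HSPA1A, with a heat shock motif at -106, had 42.6, 101 and 344 FPKM in control, 2 µM and 4 µM cells, log2 folds of 1.23 and 1.76, and its near-identical copy HSPA1B had 42.9, 92.0 and 293 FPKM (1.08 and 1.66). The other pair higher at both steps was the chaperone HSPB8 (6.57, 17.8 and 36.8 FPKM, 1.31 and 1.01, or 0.998 with a correction for GC content and length) and its partner BAG3 (15.6, 37.0 and 76.4 FPKM, 1.20 and 1.02). HSPB1, HSP27, levelled off at 102, 226 and 239 FPKM (1.13 and 0.08). The mitochondrial chaperones HSPE1 and HSPD1 had second steps of -0.62 and -0.36. The heat shock motif stood in 14 of 26 matched members (53.8%).

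Proteasome subunits had similar summed levels at 2 and 4 µM. The sum was 1006 FPKM in control cells, 1668 with 2 µM and 1659 with 4 µM ATO. The median of the 31 genes was 0.66 at the first step and -0.01 at the second, a sign that flips under scaling (0.14 by median-of-ratios, 0.13 by upper quartiles), and in 0 of 31 genes was the second step the larger. By the size rule 2 genes, PSMC1 and PSMD14, were higher at the first step and 0 at the second. The shares of all considered rows were 1.16% and 1.14%. PSMD2, a base subunit, stood apart at 66.5, 125 and 195 FPKM (0.90 and 0.63), and PSMD4, a ubiquitin receptor, at 58.3, 79.3 and 60.1 FPKM (0.44 and -0.39).

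The 27 autophagy genes had medians of 0.30 and 0.18. At each step 2 of them were higher, beside 1.16% and 1.14% of all considered rows. Both were graded. SQSTM1, the cargo receptor p62 and also an NRF2 target, had 18.9, 62.4 and 134 FPKM (1.67 and 1.09), and GABARAPL1, an ATG8 protein of the autophagosome membrane, had 5.28, 13.4 and 30.7 FPKM (1.19 and 1.14). SQSTM1 overlaps 2 genes on the other strand. Just under the rule at the second step were BNIP3 (0.91), a mitophagy receptor, and MAP1LC3B (0.79), and BNIP3 passed it with median-of-ratios scaling (1.06).

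**Figure D4:**
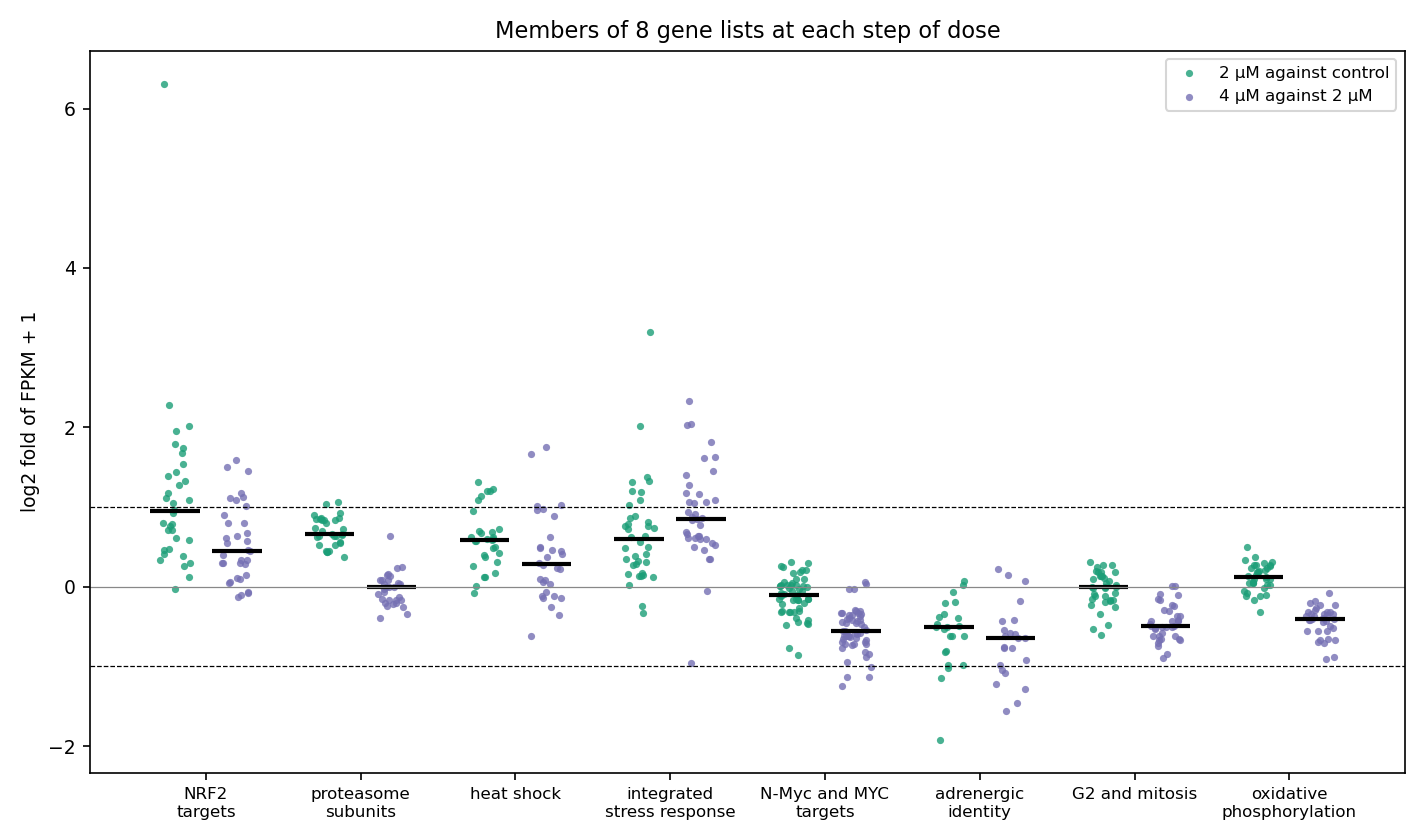
Each point is a considered member of 1 of 8 gene lists, with its log2 fold of FPKM + 1 at the first step (green) and the second step (purple), and black bars mark list medians. NRF2 targets and proteasome subunits sit higher at the first step, integrated stress response genes higher at the second, and N-Myc and MYC targets, mitosis genes and oxidative phosphorylation genes lower at the second.

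Endoplasmic reticulum chaperones had medians of -0.04 and 0.15, against 0.01 and -0.12 over all considered rows. At the second step 7 of the 23 lay below the median of all rows. The list median there was 0.29 with median-of-ratios scaling. Of 23 genes 0 were called at the first step and 2 were higher at the second, beside 1.14% of all considered rows. These were HERPUD1 (16.8, 19.1 and 40.8 FPKM, 1.05), which helps degrade misfolded proteins, and the co-chaperone DNAJB9 (7.32, 8.79 and 18.7 FPKM, 1.01). Rows without a symbol overlap HERPUD1 on the same strand. With a correction for GC content and length DNAJB9 had 0.93. The main chaperone HSPA5 had 149, 108 and 155 FPKM (-0.45 and 0.51), and CRELD2 had a second step of -0.78.

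Death and arrest genes gave 4 and 1 higher members in 2 lists, where 1.14% of all considered rows were higher. Of 22 p53 targets 4 were higher at the second step, CDKN1A, TNFRSF10B, SESN2 and GDF15, of which 2 also belong to the integrated stress response list, and the list medians were 0.14 and 0.02. CDKN1A, the cell cycle inhibitor p21, had 4.93, 15.8 and 46.6 FPKM in control, 2 µM and 4 µM cells, log2 folds of 1.505 and 1.501. MDM2, a core p53 target, had 9.33, 9.47 and 9.19 FPKM (0.02 and -0.04). TNFRSF10B, the TRAIL receptor DR5, had 2.37, 3.55 and 9.44 FPKM (0.43 and 1.20), and was the 1 of 17 genes of the BCL2 family and death receptors that was higher at the second step. PMAIP1, the BH3 protein NOXA, had 5.17, 10.2 and 19.99 FPKM (0.86 and 0.91), past the rule at the second step with median-of-ratios scaling (1.05). BMF fell at 2 µM (32.5, 11.5 and 7.03 FPKM, -1.42 and -0.64).

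Early response, cytoskeletal and metabolic lists each held a few genes with large second steps, where 1.14% of all considered rows were higher. FOSL1, an AP-1 subunit, had 6.69, 26.9 and 78.0 FPKM (1.86 and 1.502) and DUSP5, a phosphatase of ERK, 2.45, 5.57 and 15.6 FPKM (0.93 and 1.34), the 2 of 23 early genes called. Of 31 actin and SRF genes 2 were higher at the second step, FLNC among them, while the list median went from 0.40 to 0.04. ZYX, CCN2 and FLNC were the 3 higher at the first step, and ZYX, a focal adhesion protein, stayed near 2 µM at 68.4, 138 and 148 FPKM. Hypoxia and glycolysis genes had medians of 0.27 and 0.36 with 3 of 29 higher at the second step. These were NDRG1 (2.23, 5.47 and 20.03 FPKM, 1.00 and 1.70), the angiogenic factor VEGFA (6.52, 7.09 and 16.3 FPKM, 0.10 and 1.10) and hexokinase HK2 (22.8, 22.4 and 46.6 FPKM, -0.02 and 1.03, or 0.86 with the GC and length correction).

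Of 18 lipid genes the second-step calls were FABP3 and PLIN2, a lipid droplet coat protein (11.0, 19.4 and 46.0 FPKM, 0.76 and 1.20). Of 11 polyamine genes 2 were higher and 1 was lower at the second step, beside 1.14% and 1.34% of all considered rows. SAT1 and SMOX, which break polyamines down, were graded at 15.1, 49.5 and 143 FPKM (1.65 and 1.51) and 2.42, 7.34 and 16.0 FPKM (1.28 and 1.03), and SRM, which makes spermidine, was lower at 4 µM. Other members of either role were not called, with second steps of -0.13 for the oxidase PAOX, 0.26 for SAT2 and 0.13 for spermine synthase SMS. ODC1, the first enzyme of the pathway, had 71.9, 69.4 and 68.2 FPKM (-0.05 and -0.03). Of 10 secreted stress factors 5 were higher at the first step and 4 at the second, beside 1.16% and 1.14% of all considered rows. The 4 were GDF15, ADM2, STC2 and VEGFA, and CXCL8 was level between doses (0.382, 2.25 and 2.23 FPKM). CXCL8 and IL11, among the 5, stood below 1 FPKM in the control, so they passed the filter through the ATO libraries. MMP1, an interstitial collagenase, had 22.6, 42.9 and 115 FPKM (0.89 and 1.40).

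MYCN was lower at each step. It had 832 FPKM in control cells, 412 with 2 µM and 197 with 4 µM ATO, log2 folds of -1.01 and -1.06. The second step was -0.91 with median-of-ratios scaling, -0.92 with upper-quartile scaling and -0.97 as TPM, so its call there depends on scaling, and MYCNOS overlaps it on the other strand. MYC had 1.28, 2.15 and 4.84 FPKM (0.46 and 0.89, or 1.01 with median-of-ratios scaling), its dimer partner MAX 7.84, 8.73 and 8.97 FPKM (0.14 and 0.03), and MXD1, which competes with MYC proteins for MAX, 2.12, 3.21 and 12.1 FPKM (0.44 and 1.64). MXD1 was the member of this list of 14 that was higher at the second step and MYCN the one that was lower. The shares of all considered rows were 1.14% and 1.34%. MXD1 overlaps SNRNP27 on the same strand.

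The list of activated targets of N-Myc and MYC had its larger median shift at the second step. Of 53 considered genes 0 were called at the first step and 4 were lower at the second, with medians of -0.10 and -0.56. Of all considered rows 1.34% were lower at the second step. At the first step 34 of the 53 had a log2 fold below 0 and at the second 51, of which 49 lay below the median of all rows. With median-of-ratios scaling the second-step median was -0.43. The E-box CACGTG stood in 12 of 46 matched members (26.1%), and the windows of NME1 and CAD held none.

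SRM, with the E-box at -199, had 35.5, 38.0 and 16.7 FPKM in control, 2 µM and 4 µM cells, log2 folds of 0.10 and -1.14. NME1, a nucleoside diphosphate kinase, had 38.3, 43.7 and 19.3 FPKM (0.18 and -1.14), with a read-through row, NME1-NME2, on the same strand that had -0.86 at the second step. RRP9, of ribosomal RNA processing, had 14.9, 12.9 and 4.87 FPKM (-0.20 and -1.24). SRM and NME1 were highest at 2 µM, RRP9 was highest in the control, and all 3 were lowest at 4 µM. CAD, which starts pyrimidine synthesis, had 28.9, 16.5 and 7.74 FPKM (-0.77 and -1.01). With median-of-ratios scaling RRP9 remained past the rule, while NME1 (-0.99), SRM (-0.99) and CAD (-0.86) fell just short of it.

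Some adrenergic identity genes were lower at each step, and the list medians lay below those of all rows. Of 23 considered genes 3 were lower at the first step and 6 at the second, with 0 higher at either. Of all considered rows 0.901% and 1.34% were lower at these steps. The medians of the adrenergic list were -0.51 and -0.65. PHOX2A, a homeobox regulator of noradrenergic fate, had 136 FPKM in control cells, 76.3 with 2 µM and 25.3 with 4 µM ATO, log2 folds of -0.82 and -1.56. HAND1 had 106, 52.8 and 18.6 FPKM (-0.99 and -1.46) and HAND2 97.2, 73.9 and 35.4 FPKM (-0.39 and -1.04). These regulators fell more at the second step, each with its lowest level at 4 µM. The receptor RET took its larger step first at 72.1, 32.1 and 15.7 FPKM (-1.14 and -0.99). The noradrenaline transporter SLC6A2 fell at both (8.04, 3.44 and 0.902 FPKM, -1.02 and -1.22), while TH, which makes dopamine precursor, had -0.81 and -0.65. SOX11, KLF7 and DLK1 had second steps of 0.22, 0.14 and 0.07.

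Mesenchymal identity genes had medians of 0.08 and 0.13. FOSL1 was the 1 of 20 called at the second step, as higher, beside 1.14% of all considered rows. The second-step median of the list was -0.002 once genes averaging under 10 FPKM were left out. Of 22 neuronal differentiation genes 0 were called at the second step. The list medians were -0.04 and -0.13, close at the second step to the -0.12 of all rows, with 11 of 22 below that. NEFL was at -0.82 and GAP43 at -0.67, while 8 of the 22 were above 0, up to 0.62. Among lower genes of the class levelled off were the kinase BLK (5.57, 0.869 and 0.529 FPKM, -1.81 and -0.29) and TGFB3 (6.16, 1.498 and 0.864 FPKM, -1.52 and -0.42). At these low levels the pseudocount shrinks the second step, which was -0.62 for BLK and -0.73 for TGFB3 with a pseudocount of 0.1, past the bound of the class. The receptor CCKAR was slowing at 6.81, 0.893 and 0.287 FPKM (-2.04 and -0.56).

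Several secreted and membrane genes had large decreases. IGFBP3, which binds insulin-like growth factors, had 151, 73.1 and 19.0 FPKM in control, 2 µM and 4 µM cells, log2 folds of -1.03 and -1.89. IGFBP5 had its larger step first, at 103, 19.2 and 8.19 FPKM (-2.36 and -1.14, or -0.997 with median-of-ratios scaling). LINGO4, a leucine-rich repeat membrane protein, had 91.6, 34.1 and 7.21 FPKM (-1.40 and -2.09), the largest second-step decrease among named genes with a value above 0 in each library. The R-spondin receptor LGR5 had 33.7, 12.2 and 3.52 FPKM (-1.39 and -1.55) and the apelin receptor APLNR 99.4, 63.8 and 18.4 FPKM (-0.63 and -1.74). Of 19 matrix and fibroblast genes 4 were lower at the second step, LUM, ISLR, MMP11 and COL3A1, and 1 was higher, COL6A3. The shares of all considered rows there were 1.34% lower and 1.14% higher. LUM, the proteoglycan lumican, had 59.2, 31.9 and 11.2 FPKM (-0.87 and -1.43) and the collagen chain COL6A3 17.2, 13.0 and 28.5 FPKM (-0.39 and 1.08, or 0.93 with the GC and length correction). Genes that mark fibroblasts lay on both sides of the filter. COL1A2, FAP and POSTN were under 1 FPKM in every library, while LUM and COL3A1, of the same marker set, passed the filter. The part of other cells in these values was not tested.

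Genes of higher dose only that fell had varied roles. MND1, a meiotic recombination factor, had 6.57, 4.55 and 0.4996 FPKM (-0.45 and -1.89), TMEM100, a membrane protein of BMP signalling, 20.5, 17.3 and 5.24 FPKM (-0.23 and -1.55), and the small GTPase RAC3 14.97, 13.6 and 4.49 FPKM (-0.13 and -1.41). POLA2, a subunit of the primase complex, had 8.80, 9.80 and 3.61 FPKM (0.14 and -1.23) and the G1 cyclin CCNE1 3.53, 3.63 and 1.30 FPKM (0.03 and -1.01, or -0.91 with median-of-ratios scaling). Those were the 2 of 43 replication genes called at the second step, where 1.34% of all considered rows were lower. A row without a symbol overlaps POLA2 on the same strand. The list medians were -0.06 and -0.45, with 37 of 43 below 0 at the second step. Not every member went that way, as GINS3 had 0.40 and CDC6 0.29. UPK3BL2 was listed at 0 at 4 µM, after 2.69 and 4.09 FPKM, and is a near-identical copy of UPK3BL1, so it is uncertain.

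In 5 further lists most members lay below the median of all rows at the second step, nearly all short of the size rule. By that rule 1.34% of all considered rows were lower. The 36 genes of G2 and mitosis had medians of -0.004 and -0.49, with 0 called and 32 below the median of all rows, led by MAD2L1 (19.9, 19.6 and 10.0 FPKM, -0.90) and AURKB (-0.84). All 23 cholesterol synthesis genes had a second step below 0 (22 below the median of all rows), with medians of -0.01 and -0.46, and PMVK was the 1 called (19.2, 17.7 and 8.18 FPKM, -1.02, or -0.88 with median-of-ratios scaling). All 35 nuclear genes of oxidative phosphorylation were below 0 (34 below the median of all rows), medians 0.12 and -0.40, with NDUFB10 at -0.91 and NDUFA8 at -0.88. For 55 cytosolic ribosomal protein genes the medians were 0.09 and -0.26, with 55 below 0 and 51 below the median of all rows. For the 13 genes of the mitochondrial genome the medians were -0.01 and -0.22, and their summed level was 61412 FPKM at 2 µM and 53874 FPKM at 4 µM. With median-of-ratios scaling these 5 second-step medians were -0.34, -0.32, -0.26, -0.11 and -0.07 in the same order.

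**Figure D5:**
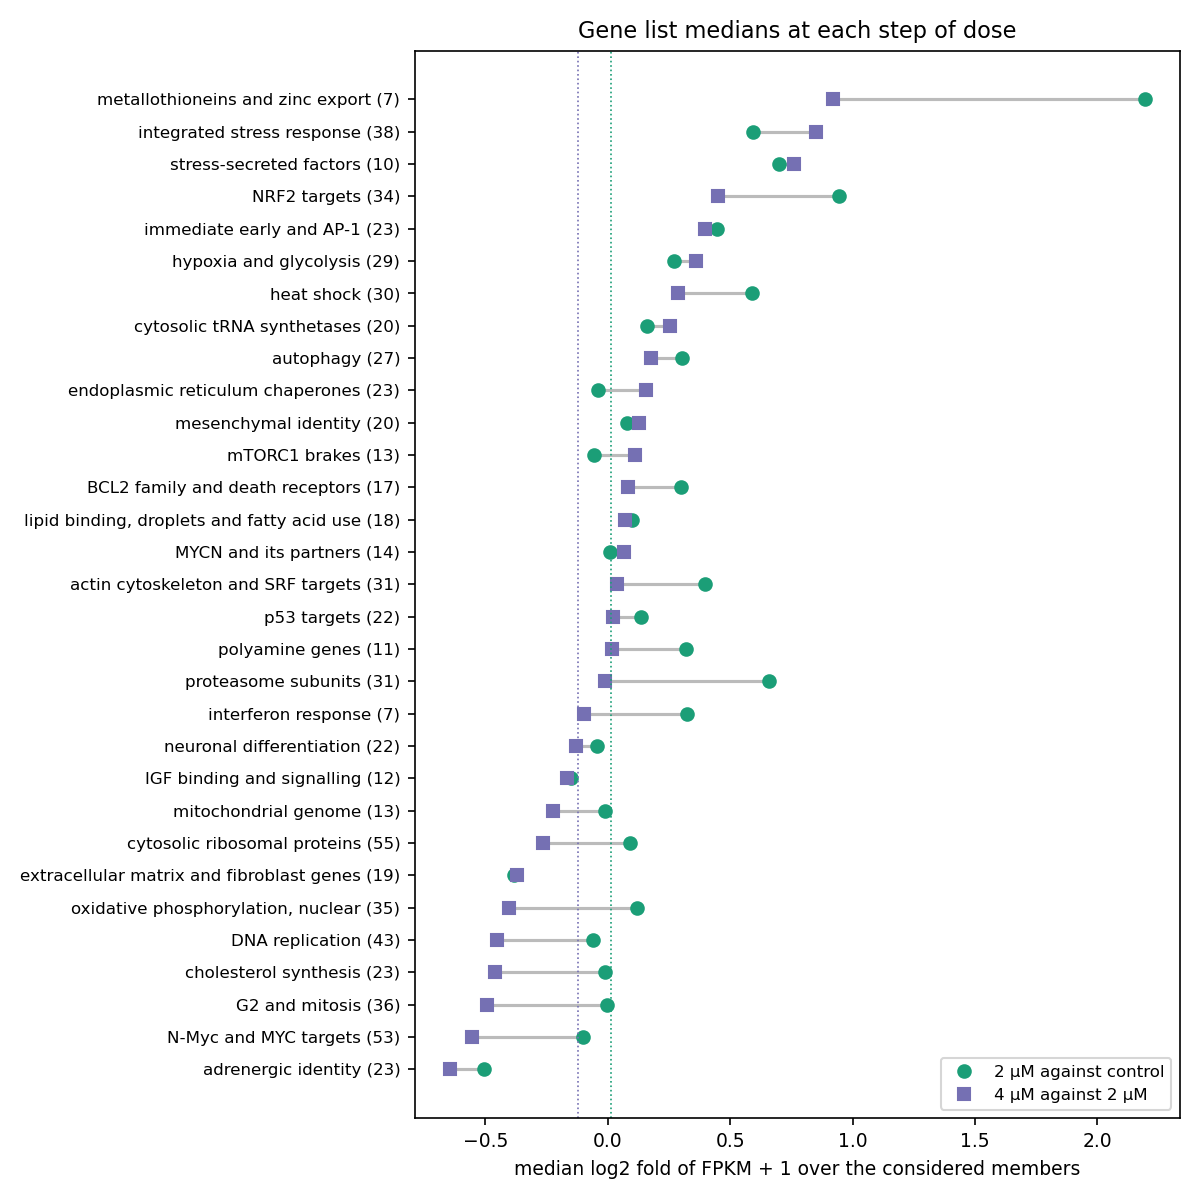
Median log2 fold of FPKM + 1 over the considered members of each list with at least 5 of them (number in brackets) at the first step (green circles) and the second step (purple squares). Dotted lines mark the medians of all considered rows, 0.01 and -0.12. Metallothioneins, NRF2 targets and proteasome subunits lie further right at the first step, and mitosis, cholesterol, replication and N-Myc and MYC target lists further left at the second.

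Motif shares were also counted by dose class. Over the 9088 matched considered genes the antioxidant response motif stood in 15.9% and the C/EBP-ATF motif in 2.15%. The heat shock motif stood in 5.52% of them, the E-box in 11.6% and the metal response motif in 40.6%. The antioxidant response motif stood in 16 of 56 matched higher genes that levelled off or slowed (28.6%) and in 9 of 51 that were late leaning or of higher dose only (17.6%). In graded genes it stood in 5 of 29 (17.2%). The C/EBP-ATF motif stood in 3.57% of the first group, 6.90% of graded genes and 7.84% of the late-leaning or higher-dose-only group, the heat shock motif in 5.36%, 13.8% and 11.8%, and the E-box in 1.79%, 6.90% and 17.6%. Among lower genes the E-box stood in 18.8% of those that levelled off or slowed, 6.67% of graded ones and 4.65% of those late leaning or of higher dose only. Shares of the other motifs among lower genes are not given here. Among higher genes the metal response motif stood in 42.9% of those that levelled off or slowed and 34.5% of graded ones. It stood in 37.3% of those late leaning or of higher dose only. All these counts rest on few genes and were not tested.

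Rows that turned back were mostly not plain genes. Of the 35, 29 had no symbol or were read-through, pseudogene or small RNA rows, and their median level was 2.50 FPKM against 6.22 FPKM over all considered rows. The 6 with a plain symbol included AGAP2-AS1 (6.76, 1.43 and 8.47 FPKM), which overlaps AGAP2 on the other strand, and BOLA2 (2.57, 0.124 and 3.69 FPKM), whose copy BOLA2B had 2.65, 4.32 and 2.53 FPKM. The largest second step of any considered row was that of the read-through row RPL36A-HNRNPH2, at 0.344, 0.522 and 59.1 FPKM (5.30). Its components had lower levels at 4 µM than at 2 µM, RPL36A 14.1, 12.7 and 9.10 FPKM (-0.44) and HNRNPH2 61.8, 75.4 and 61.4 FPKM (-0.29). PEDS1-UBE2V1 was listed at 0 in the control and at 4 µM and had 10.1 FPKM at 2 µM, while PEDS1 had 3.92, 4.15 and 5.27 FPKM. How fragments were divided between such overlapping rows is not given in the sources used here.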

How the data were processed

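RNA-seq covered 3 libraries, 1 per condition (control, ATO 2 µM, ATO 4 µM, each at 12 h), made from 1.3 µg of total RNA with paired-end TruSeq kits, per the labels' protocols. The authors' values are FPKM, per the file headers. Aligner, counting tool, strand use and annotation were not given in the sources used here. GRCm38 and mm10, both mouse builds, are named per the submitters' processing notes, although symbols and Ensembl identifiers in the table are human. Counts were not used here. Low FPKM values times transcript length (GENCODE 29) clustered at a spacing whose inverse was between 35.3 and 36.9 per library, but between 11.1% and 11.9% of low values were whole multiples within 0.01, so reads were not recovered and no counting interval is given.

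The deposited FPKM were turned into log2 ratios of FPKM + 1 over the 12433 rows averaging 1 FPKM or more. A pseudocount of 1 understates the folds of low genes. The considered rows comprised 11120 plain symbols, 657 rows without a symbol, 513 pseudogenes, 89 small RNAs and 54 read-through rows. With 1 library per group no SD, SE or p-value was computed. Dose classes used bounds of 1 and 0.5 on the log2 scale. The class code was run on simulated rows with raised levels, little noise and planted folds well inside the bounds. That run checks the code alone and says nothing of how often rows of these data are misplaced. The members, the 34 gene lists and the classes were chosen with earlier results of these data known. Genes were named by rule, the 15 largest increases and decreases at the second step, the 6 leading genes of each dose class and direction, up to 4 members of each list and a set of fixed names. Outside this rule, and chosen after their values were seen, were CHAC1, ATF4, ATF5, CEBPB, PPP1R15A, SLC6A9, PHGDH, PSAT1, SHMT2, MTHFD2, ASNS, ALDH18A1, TXNRD1, PGD, FTL, SRXN1, AKR1C3, SLC30A1, HSPB1, HSPE1, HSPD1, HSPA5, PSMC1, PSMD14, MDM2, ZYX, CCN2, CXCL8, IL11, HAND2, GATA3, DBH, RET, SOX11, KLF7, DLK1, COL3A1, COL1A2, FAP, POSTN, PTPRC, GINS3, CDC6, MRPS34, BOLA2B, PAOX, SAT2, SMS, the read-through rows and their components. Some genes that the rule names are not reported here. Promoters were taken from RefSeq (GRCh38.p14) by symbol. The alternatives were pseudocounts of 0.1 and 5, no filter and a filter of 10 FPKM, median-of-ratios and upper-quartile scaling, TPM, plain symbols alone, a 1.5-fold rule, a small-step bound of 0.25 and, added after the data were seen, a GC and transcript length correction in 20 bins each over the 98.2% of rows with both. Python 3.11.15, pandas 2.3.3, numpy 2.4.6 and matplotlib 3.10.9 were used.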

Additional observations from a re-analysis of the deposited data

How the results depend on the processing

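No paired analysis was possible because each group had 1 library and the labels gave no replicate numbers. Leaving out a library was not possible for the same reason. The counts depended on the pseudocount, the filter and the scale. With a pseudocount of 0.1 there were 266 rows higher and 469 lower at the second step, and 154 levelled off, 143 slowing, 131 graded, 148 late leaning, 361 of higher dose only and 78 turned back. With a pseudocount of 5 these counts were 47, 30, 19, 19, 18, 30, 19 and 5, and with the filter raised to 10 FPKM they were 57, 77, 29, 34, 37, 40, 52 and 3. That filter left fewer rows, 3112 averaging 10 to 30 FPKM and 1164 averaging 30 or more. The shares called at the second step were 2.70% and 4.30% there, against 1.97% at 1 to 3 FPKM and 2.25% at 3 to 10 FPKM. As TPM the same counts were 305, 268, 141, 117, 115, 135, 240 and 64. There 1 was still added after FPKM were multiplied by 3.81 to 4.05, so that setting also lowered the pseudocount in effect. Median-of-ratios scaling gave 220 higher and 91 lower, and upper-quartile scaling 211 and 97. A 1.5-fold rule gave 588 higher, 1209 lower, 626 levelled off, 341 graded, 1299 of higher dose only and 89 turned back. A small-step bound of 0.25 left 43 levelled off and 81 of higher dose only, and plain symbols alone left 6 turned back. Without a filter the second-step median of leukocyte and red cell markers, 0.32 from CD68 alone, turned to -0.053. The GC and length correction, added after seeing the data, moved none of the 8 counts by more than 1.5 times. Of the 168 genes covered by the naming rule, 41 fell under the size rule at the second step with a pseudocount of 5, 8 with median-of-ratios scaling and 6 with upper-quartile scaling, and 0 changed sign past it.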

Other observations

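Genes of mitochondrial ribosomal proteins, a group picked after their values were seen, had mostly lower levels at 4 µM than at 2 µM. Of the 78 considered protein genes named MRPL or MRPS, 0 were higher or lower by the size rule at the first step. At the second step, where 1.34% of all considered rows were lower, 5 of the 78 were lower. These were MRPS26, MRPL24, MRPL12, MRPL41 and MRPS34. The medians were 0.13 and -0.49, against 0.01 and -0.12 over all considered rows. At the second step 77 of the 78 were below 0 and 76 were below the median of all rows, against 16 below 0 at the first step. MRPS34 had 45.7, 43.4 and 21.2 FPKM in control, 2 µM and 4 µM cells.

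RPL21, which encodes a cytosolic ribosomal protein and was not in the list of those genes, had 38.2, 38.1 and 15.5 FPKM, a second step of -1.25, whereas the 55 listed genes lay between -0.55 and -0.04. RPL21 was singled out after its value was seen.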
